A study of Mus musculus with 7 samples.

Results

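Interneurons with the cannabinoid receptor gene Cnr1 were chosen by their own transcript counts from dissociated mouse cortex, as candidates for the basket cells that carry Cnr1, Cck and Sncg. A cell was taken when its raw counts of unique molecular identifiers (UMIs) met every one of these conditions: Gad1 and Gad2 together at least 2, Slc17a7 at most 1, Cnr1 at least 1, either Sncg at least 1 or Cck at least 5, Sst below 5, Vip below 3, Pvalb below 2, Lamp5 and Ndnf at 0, and Npy below 2. This gate took 90 of 32985 cells, out of 2378 cells that pass its Gad1, Gad2 and Slc17a7 conditions and are called GABA cells here. The levels of these 12 genes in the gated cells follow from the gate, so they are given as a description and were not tested.

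The cells come from the ventromedial prefrontal cortex (PFC) and motor cortex (MC) of B6129SF1/J mice aged 30 days, whose room was lit for 12 h and dark for 12 h of each cycle. DTA mice are Opn4-Cre/+; Brn3b-zDTA/+ and CTRL mice are Opn4-Cre/+; Brn3b-+/+, so that both carry the Cre allele at the melanopsin gene. In DTA mice the Cre allele switches on diphtheria toxin subunit A where Brn3b is also active, which ablates most intrinsically photosensitive retinal ganglion cells and spares those without Brn3b. There are 3 PFC DTA, 2 PFC CTRL, 1 MC DTA and 1 MC CTRL libraries of 10x Genomics 3′ reads, and the labels do not say how many mice went into one library.

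Inhibitory basket cells wrap the cell body of pyramidal neurons and come in a pair of classes. The Pvalb class fires fast and releases GABA in tight synchrony with its spikes. The Cck class fires more slowly, releases GABA less synchronously, and carries the cannabinoid receptor CB1 (Cnr1) on its terminals, through which endocannabinoids made by the pyramidal neuron silence it. Its neurons arise from the caudal ganglionic eminence (CGE), like Vip neurons and many Lamp5 neurons, whereas Pvalb and Sst neurons arise from the medial ganglionic eminence (MGE). In mouse cortical atlases Sncg, which encodes gamma-synuclein, has become the marker of the Cck basket class. In GRCm38 (mm10) with GENCODE M21 genes, Cnr1 lies at chr4:33924593-33948831 on the plus strand, Cck at chr9:121489824-121495694 on the minus strand and Sncg at chr14:34370274-34374789 on the minus strand, and each is a protein-coding gene.

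The gated cells numbered 3, 10 and 8 in PFC DTA replicates 1 to 3, 4 and 37 in PFC CTRL replicates 1 and 2, 6 in MC DTA and 22 in MC CTRL. Their counts summed to between 15074 and 159290 UMIs per library, and their median UMIs per cell ran from 4010 in PFC CTRL replicate 2 to 10587.5 in MC DTA. Whole libraries held 1936 to 9879 cells and 6180059 to 30972905 UMIs. Of the cell barcodes, at most 92 were shared by any pair of libraries. Levels are given as CPM, a gene's UMIs scaled to all UMIs of a library's cells of one class. Over libraries they are given for the 5 that hold at least 5 gated cells, always in the order PFC DTA replicates 2 and 3, PFC CTRL replicate 2, MC DTA and MC CTRL. With fewer transcripts of a gene in a sum, fewer cells that use it and less of it per cell cannot be told apart.

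By construction all 90 cells had Cnr1. Its level was 1529, 1967, 3472, 3007 and 4260 CPM in the 5 libraries, against a mean of 1435 CPM in Vip cells, 1026 in Lamp5 and Npy cells, 234 in Sst cells and 89.8 in Pvalb cells. Cck, a neuropeptide that excitatory neurons also make in quantity, averaged 6109 CPM in the gated cells and 3732 CPM in excitatory neurons. Sncg was detected in 27 of the 90 cells, against 10.6% of Vip cells, 3.44% of Lamp5 and Npy cells, and 0.271% of excitatory neurons, whose median depth in PFC CTRL replicate 2 was 5236 UMIs. It had no UMI in 477 Pvalb and 486 Sst cells, which allows shares of cells with a UMI of up to 0.629% and 0.617%, for counting error only. It averaged 291 ± 128 CPM in the gated cells (SD, n = 5 libraries). Both routes into the gate were met by 25 cells, Cck alone admitted 63 and Sncg alone admitted 2, so the gate rested mostly on Cck.

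The conditions that turned most candidates away were those on Gad1 and Gad2 (205 cells failed only there), Vip (89 cells) and Pvalb (84 cells). Cells that missed by 1 UMI numbered 22 at Gad1 and Gad2, 22 at Cnr1, 12 at Lamp5, 5 at Slc17a7 and 5 at Sncg or Cck. Just inside the gate stood 27 cells with 1 UMI of Npy, 16 with 1 UMI of Pvalb and 15 with 1 UMI of Slc17a7. There too were 12 cells with 1 UMI of Cnr1 and 7 cells with exactly 2 UMIs of Gad1 and Gad2.

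Genes that the gate did not use divided the 90 cells. All GABA cells were clustered with the 12 gate genes and the mitochondrial genes left out, and 66 of the gated cells (73.3%) fell into one cluster of 241 cells, called the main cluster here. The rest of that cluster was 91 Lamp5 and Npy cells, 35 Vip cells, 1 Sst cell and 48 cells of no gate, so that gated cells were 27.4% of it. The other 24 gated cells lay in 7 other clusters. Of them 10 fell in a cluster of 249 cells that held 166 Pvalb cells, 4 in one where 59 of 98 cells were Pvalb cells, and 4 in one where 112 of 166 were Sst cells.

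Cnr1 and Cck themselves, which had no part in the clustering, separated along the same line. Cnr1 had a median of 18 UMIs per cell in the main cluster (1 to 96) and of 2 UMIs in the 24 cells outside it (1 to 24), at median depths of 4658 and 5071 UMIs. Pooled over cells this is 3925 CPM in the main cluster and 537 CPM outside. Cck pooled to 8158 CPM in the main cluster and 1802 CPM outside. All 27 cells with Sncg were in the main cluster and none was outside, where all 24 cells had entered through Cck.

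**Figure D1:**
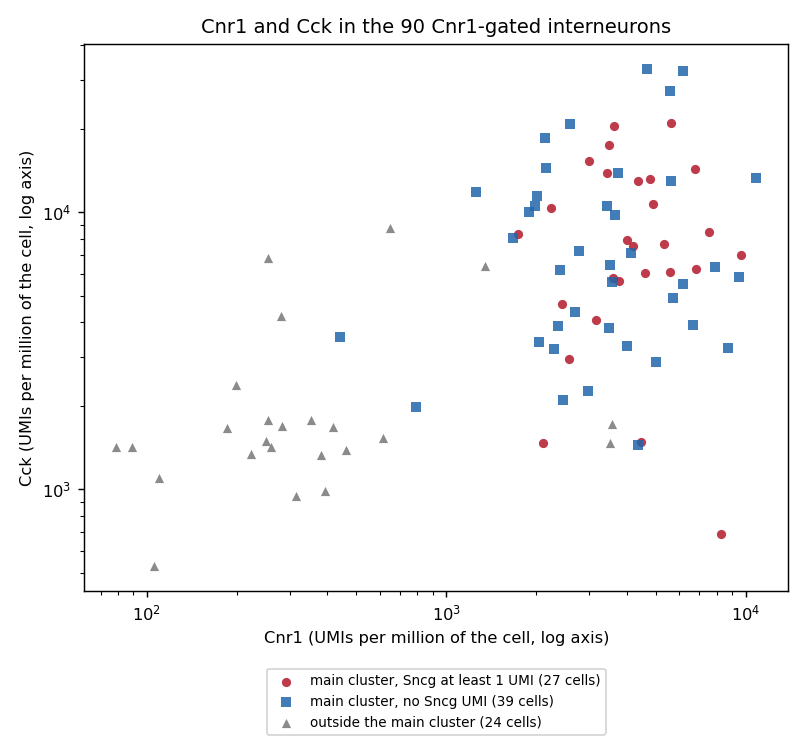
Cnr1 (horizontal) and Cck (vertical) in each of the 90 gated cells, as CPM of the cell on log axes; each point is a cell. The 24 cells outside the main cluster (triangles) lie mostly at low Cnr1 and Cck, and the 27 cells with Sncg (circles) lie all within the main cluster.

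Lineage genes followed the split. Adarb2, a relative of RNA-editing enzymes that marks CGE-derived neurons, had a UMI in 61 of 66 cells of the main cluster and in 4 of 24 outside. Lhx6, the transcription factor of MGE-derived neurons, had 0 counts in the main cluster, and Sox6, its partner, was found there in 1 cell. Outside it, Lhx6 had a UMI in 6 cells and Sox6 in 9. Prox1, a CGE factor, had a UMI in 20 cells of the main cluster and in none of the 24. Satb1, which Pvalb and Sst neurons keep into maturity, was seen in 13.6% and in 70.8%. The clustering used these lineage genes, so the split in them is a description. Counted per cell, 63 of the 90 carried Adarb2 without Lhx6 or Sox6, 12 carried Lhx6 or Sox6 without Adarb2, 2 carried both and 13 carried neither. The name of a Cnr1 and Sncg basket cell calls for CGE lineage genes, which the main cluster carried. Vip and many Lamp5 neurons share that lineage, so these genes do not tell a basket cell from them. In the main cluster 39 of the 66 gated cells had no Sncg UMI. Of the other 24 cells, 12 carried Lhx6 or Sox6 alone, against the name, and 8 carried none of the 3 genes. The 90 are therefore called Cnr1-gated interneurons.

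The share of cells outside the main cluster was not the same in every library. It was 1 of 3, 4 of 10 and 2 of 8 in PFC DTA, 2 of 4 and 13 of 37 in PFC CTRL, 0 of 6 in MC DTA and 2 of 22 in MC CTRL. Together that is 2 of 28 cells in the MC and 22 of 62 in the PFC.

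**Figure D2:**
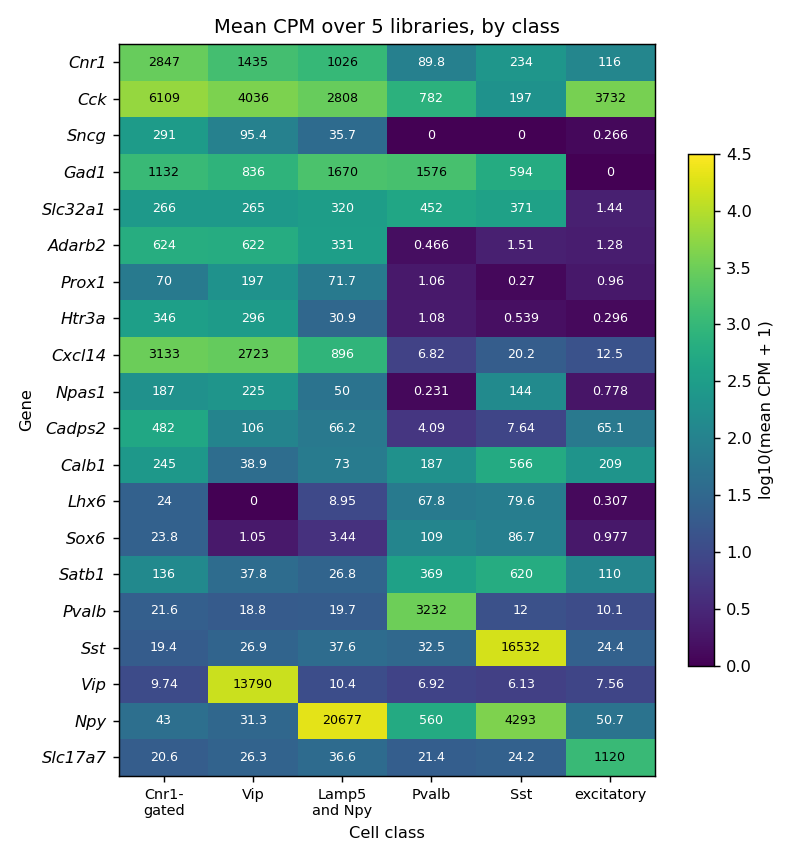
Mean CPM over 5 libraries for 20 genes (rows) in the Cnr1-gated interneurons and 5 other classes (columns); colour is log10 of the mean plus 1 and the number is the mean. The gated cells share Adarb2 and Htr3a with Vip cells and carry little of the Pvalb, Sst, Vip and Npy that the gate limits.

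Slc32a1, the vesicular GABA transporter, stood at 266 ± 96.7 CPM in gated cells, 265 ± 20.9 in Vip cells and 1.44 in excitatory neurons. Of the peptides that the gate limits, Vip had a UMI in 5.56% of gated cells and in 5.75% of excitatory neurons. Markers known for rarer Cck basket types were scarce, with Slc17a8, the vesicular glutamate transporter VGLUT3, in 2 of 90 cells and Krt73, a keratin used as a marker of Sncg neurons, in 8. Scrublet called 3 of the 90 cells doublets, 2 in PFC CTRL replicate 2 and 1 in MC CTRL.

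Inside the main cluster the cells with and without Sncg differed in other genes. The following genes were picked after their values were seen, from the gene lists and the tested genes, and the cells are not replicates, so no test is given. Htr3a, the ionotropic serotonin receptor, had a UMI in 25 of 27 cells with Sncg and in 11 of 39 without, at pooled levels of 712 and 217 CPM. Cadps2, a priming factor of dense-core vesicles, had a UMI in 25 of 27 and in 9 of 39. Npy2r, the presynaptic Y2 receptor for neuropeptide Y, was found in 18 of 27 and in 7 of 39. Calb1, a calcium buffer, reached 465 CPM with Sncg and 28.6 CPM without, with a UMI in 14 and in 5 cells. The synaptotagmin Syt6 was found in 16 of 27 and in 6 of 39.

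Other genes pooled higher in the cells without Sncg, of which 20 of 39 were MC cells, against 6 of the 27 with Sncg, so they are given by area. Crtac1, an extracellular matrix protein, pooled to 121 CPM with Sncg and 339 CPM without in the MC, and to 17.4 and 75.8 CPM in the PFC. The complexin Cplx3 had no count with Sncg and 238 CPM without in the MC, and stood at 17.4 and 106 CPM in the PFC. Nov, a secreted matricellular protein, had no count with Sncg and 385 CPM without in the MC, but 40.6 and 60.6 CPM in the PFC. Ogfrl1 pooled to 286 CPM with Sncg and 1832 CPM without in the MC, but to 302 and 318 CPM in the PFC. Htr3a, Cadps2 and Npy2r of the first group had a UMI in 9, 8 and 7 of the 19 PFC cells without Sncg, and in 19, 20 and 14 of the 21 PFC cells with it. Adarb2 was found in nearly every cell of both, 26 of 27 with Sncg and 35 of 39 without, and Cnr1 pooled to 4099 CPM with Sncg and 3689 CPM without. The cells with Sncg were also deeper, with a median of 6924 UMIs against 4246, and the part of depth in these differences was not tested.

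**Figure D3:**
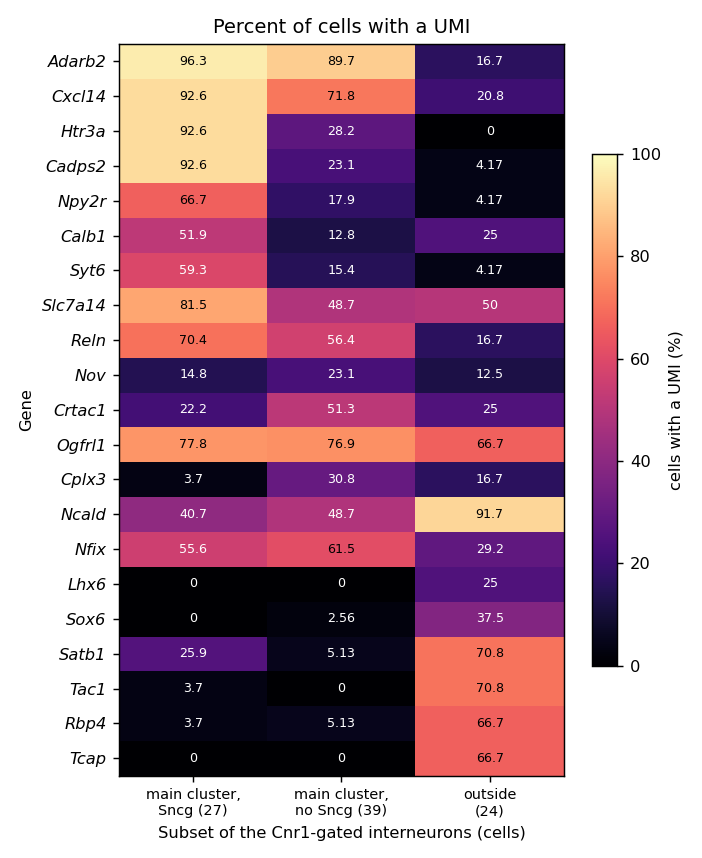
Percent of cells with at least 1 UMI of each gene (rows) in the 27 main-cluster cells with Sncg, the 39 without, and the 24 cells outside the main cluster (columns). Htr3a, Cadps2 and Npy2r are frequent with Sncg, whereas Lhx6, Satb1, Tac1, Rbp4 and Tcap are most frequent in the cells outside.

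The Cnr1-gated interneurons were then set against the other basket cell class. Each class was summed per library, the 12 gate genes were removed, and edgeR's quasi-likelihood test was run with the library as a block over 5 libraries. Against Pvalb cells, 1002 of 4729 tested genes passed an adjusted p of 0.05, which is 21.2% of them, with 491 higher (10.4%) and 511 lower (10.8%) in the gated cells. The median log2 fold change over all tested genes was 0.02. In 14.9% of the tested genes the 5 libraries of one class did not overlap those of the other. Of the 10 genes on the CGE list 7 were tested, and Adarb2, Npas1 and Nr2f2 entered through the gated cells, with 2, 1 and 6 counts in Pvalb cells. Such a gene had to be higher, so no count of calls is given for this list, and counts over the lists below are a description of the tested genes. The gated cells of these tests include those outside the main cluster.

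Adarb2 had 318 counts in gated cells and 2 counts in Pvalb cells, a pooled CPM ratio of 1038 with a 95% counting interval of 285 to 8607. Npy2r was at 222, 204, 144, 178 and 46.9 CPM in the gated cells and had no count in any Pvalb cell, which makes it at least 172-fold higher against a floor of 3 counts over the group. Htr3a had 177 counts in gated cells and 3 in Pvalb cells, a ratio of 385 with an interval of 130 to 1885. Cxcl14, a chemokine of CGE neurons, was at 4111, 2146, 2360, 5266 and 1783 CPM in gated cells, against 7.16, 3.05, 6.47, 5.78 and 11.6 CPM in Pvalb cells (log2 fold change 8.68 ± 0.24 SE, adjusted p = 2.7e-17). In each of these genes every library of the gated cells stood above every library of the Pvalb cells. Adarb2, Npy2r, Htr3a and Cxcl14 had only 2, 0, 3 and 25 counts in Pvalb cells. They entered the test through the gated cells and so had to be higher there. Nr2f2, the CGE factor COUP-TFII, averaged 232 ± 64.6 CPM in gated cells and 1.52 ± 1.52 CPM in Pvalb cells.

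The release machinery differed in both directions, with 6 of 17 tested genes higher and 7 lower. Complexins, which clamp and promote fusion at the SNARE complex, moved in opposite directions. Cplx2 was at 332, 576, 841, 1104 and 1323 CPM in gated cells, against 34.0, 30.5, 40.1, 30.03 and 54.8 CPM in Pvalb cells (4.46 ± 0.22, adjusted p = 7.9e-15). Cplx1 was at 909, 480, 596, 457 and 479 CPM in gated cells, against 2007, 1748, 1586, 2444 and 1883 CPM in Pvalb cells (-1.69 ± 0.15, adjusted p = 7.01e-09). The groups did not overlap in either gene. Syt2, the fast calcium sensor of Pvalb synapses, averaged 8.51 ± 8.28 CPM in gated cells and 349 ± 160 CPM in Pvalb cells, a log2 fold change of -5.32 ± 0.39. It had 4 counts in gated cells and so entered the test through Pvalb cells. The next genes, Kcna1 and Kcna2 below included, were chosen after their values were seen. Vamp1, a vesicle SNARE gene, Syt7 and the P/Q calcium channel gene Cacna1a were also lower in gated cells, at log2 fold changes of -2.40, -1.43 and -1.58. The N-type channel gene Cacna1b, whose channel couples calcium to release at CB1 terminals, was higher at 1.42, as was Rims2, a gene of the presynaptic active zone, at 1.16.

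Among 18 tested potassium channel and related genes, 4 were higher and 8 lower in gated cells, with a median log2 fold change of -1.17. Kcnc1, a channel gene that lets Pvalb neurons repolarise fast, averaged 277 ± 97.2 CPM in gated cells and 1383 ± 282 CPM in Pvalb cells. Kcnab3, a channel subunit, fell with it by 2.87 on the log2 scale. Kcnd3, an A-type channel gene, and Kcnq5, an M-type channel gene, rose by 3.40 ± 0.39 and 2.41 ± 0.30. Kcnd3 had 38 counts in Pvalb cells and Kcnab3 had 13 in gated cells. Each of these 2 entered the test mainly through the class where it is high, so its direction largely followed from that. Kcna1 and Kcna2, the Kv1 channels of the axon, were lower at -2.01 and -1.29.

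Of 8 tested GABA-A receptor subunit genes 4 were lower and 1 higher. Gabrd was lower at -2.53 ± 0.41, and Gabrb1 was higher at 1.16 ± 0.28. Of 6 calcium-binding genes 3 were higher and 1 lower. Necab1 and Necab2 averaged 352 ± 174 and 167 ± 81.9 CPM in gated cells, and 22.4 ± 11.7 and 3.81 ± 2.42 CPM in Pvalb cells. They had 66 and 13 counts in Pvalb cells, and Gabrd had 10 counts in gated cells. Each of these genes entered the test mainly through the class where it is high. Its direction therefore largely followed from the low-count filter of the test.

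Peptides and adhesion genes gave smaller groups. Igf1, insulin-like growth factor 1, rose by 4.22 ± 0.31 and Pnoc, the nociceptin precursor, by 2.60 ± 0.30, whereas Cort, cortistatin, averaged 29.97 ± 23.99 CPM in gated cells and 345 ± 181 CPM in Pvalb cells. Igf1 had 36 counts in Pvalb cells and Cort had 16 in gated cells. Each entered the test mainly through the class where it is high. The presynaptic adhesion gene Nrxn3 was higher at 1.66 ± 0.14 and the protocadherin gene Pcdh8 at 2.29 ± 0.30. Of 12 tested mitochondrial transcripts 10 were lower, none higher; mt-Atp6 averaged 8994 ± 2414 CPM in gated cells and 15666 ± 1754 CPM in Pvalb cells. Dlx6os1 rose by 1.75 ± 0.26; it overlaps a gene on the other strand, and whether the counting used strand is not stated. Of 4 tested genes of the endocannabinoid list other than Cnr1 none passed. Gated cells were shallower than Pvalb cells, at medians of 4010 against 4517.5 UMIs in PFC CTRL replicate 2 and 4553 against 6027 in MC CTRL, and the part of depth was not tested. The call of Lhx6 was lost under at least 1 alternative setting.

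**Figure D4:**
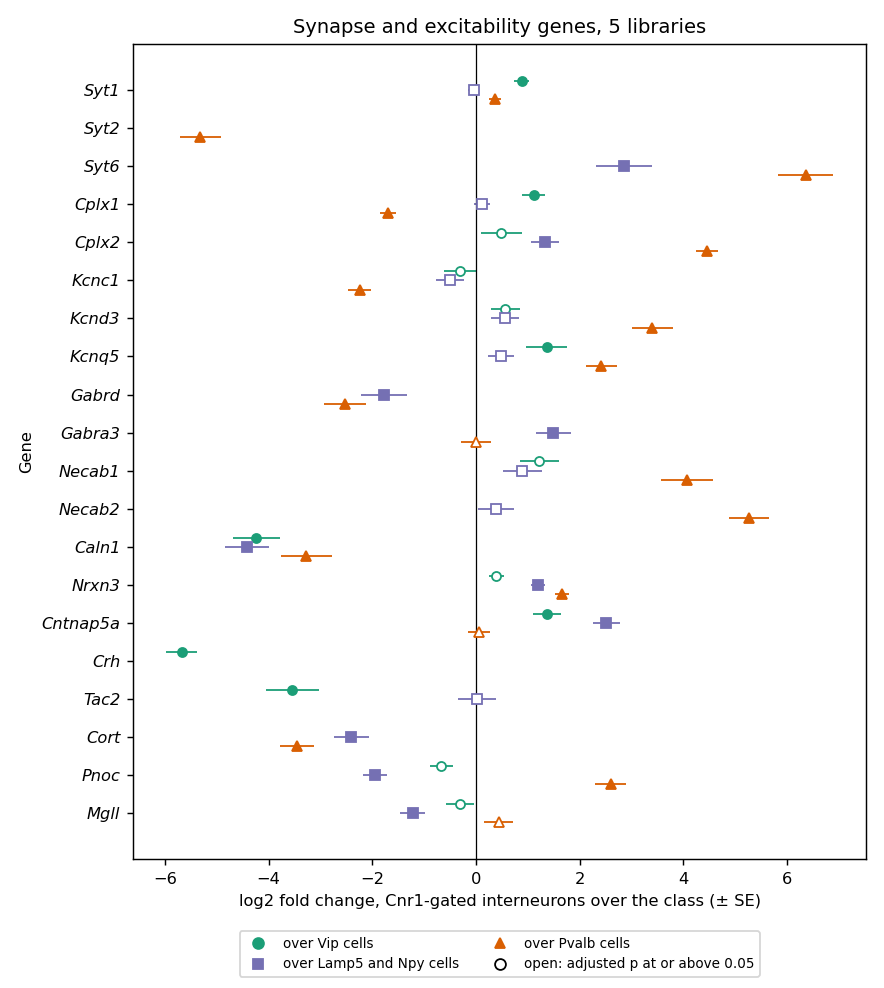
log2 fold change (± SE) of the Cnr1-gated interneurons over Vip, Lamp5 and Npy, and Pvalb cells for 20 genes, from edgeR over 5 libraries; filled points passed an adjusted p of 0.05, open points did not, and a gene without a point was not tested there. Cplx2, Kcnd3 and Necab2 lie to the right and Syt2, Kcnc1 and Gabrd to the left against Pvalb cells.

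Vip cells are a CGE class that also carries Cnr1. Against them 120 of 2753 tested genes passed (4.36%), 53 higher (1.93%) and 67 lower (2.43%) in the gated cells, and the median log2 fold change was 0.01. Libraries of the classes did not overlap in 4.18% of the tested genes. Without PFC CTRL replicate 2, 60 passed. The 3 largest losses named were peptides. Crh, corticotropin-releasing hormone, was at 11.1, 0, 25.1, 12.7 and 56.3 CPM in gated cells, against 1125, 610, 696, 2480 and 1372 CPM in Vip cells (-5.67 ± 0.30, adjusted p = 1.73e-12). Penk, the enkephalin precursor, had 3 counts in gated cells and 773 in Vip cells, a pooled ratio of 0.00745 with a counting interval of 0.00153 to 0.0219. Pthlh, parathyroid hormone-like hormone, fell by 4.81 ± 0.43, and Tac2, the neurokinin B precursor, averaged 157 ± 106 CPM in gated cells and 1824 ± 854 CPM in Vip cells. Crh, Penk and Pthlh had 12, 3 and 4 counts in gated cells and so entered the test through Vip cells. Vip itself was used by both gates.

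Reln, the secreted glycoprotein reelin, was at 166, 288, 314, 901 and 394 CPM in gated cells, against 57.9, 52.8, 52.7, 35.2 and 59.1 CPM in Vip cells, with no overlap (2.77 ± 0.31, adjusted p = 5.97e-06). Spock1, a matrix proteoglycan, averaged 593 ± 171 CPM in gated cells and 126 ± 22.2 CPM in Vip cells. Elavl2, a neuronal RNA-binding protein gene, rose by 1.49 ± 0.19, Fut9, a fucosyltransferase gene of the Lewis X epitope, by 2.04 ± 0.26, and Prkca, protein kinase C alpha, by 1.54 ± 0.23. Also among the 8 largest gains were Uhmk1, Fxyd7 and Slc7a14, at 1.64, 1.63 and 1.52. In every Vip library Reln was below the low-count filter of the test. It entered the test through the gated cells, so it had to be higher there and without overlap. Fut9 and Uhmk1 pooled to only 55.2 and 44.2 CPM in Vip cells, and the part of the filter in their direction was not tested.

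Other losses included the calcium-binding gene Caln1 (-4.24 ± 0.45), the synaptic organiser Cbln2 (-3.01 ± 0.31) and the adrenergic receptor gene Adra1b (-2.64 ± 0.28). Adra1b was on the list of marker genes for the Cnr1, Cck and Sncg type. Of its 6 genes tested against Vip cells none passed as higher, and Adra1b was the 1 that passed as lower. Igfbp4 and Gpd1 each fell by 3.01. Caln1, Igfbp4 and Gpd1 had 6, 12 and 12 counts in gated cells and so entered the test through Vip cells. Prox1 was the 1 CGE gene of 8 that passed, at 70.0 ± 21.5 CPM in gated cells and 197 ± 31.7 CPM in Vip cells. Of 11 release genes 3 were higher and none lower, among them Syt1, the main calcium sensor of release, at 0.88 ± 0.14 and Cplx1 at 1.11 ± 0.21. Kcna2 and Kcnq5 were the 2 of 8 potassium channel genes that passed, both higher. Over all 90 gated cells, Cplx1 pooled to 396 CPM in the main cluster and 1035 CPM outside it, where 162 of its 326 counts lay, against 268 CPM in Vip cells. Kcna2 pooled to 135 CPM in the main cluster and 313 CPM outside, against 70.3 CPM in Vip cells. Syt1 and Kcnq5 ran the other way, at 2572 and 121 CPM in the main cluster and 1470 and 89.5 CPM outside. Cntnap5a, a neurexin-family adhesion gene, was higher at 1.37 ± 0.27. It pooled to 135 CPM in the main cluster and 268 CPM outside, against 66.3 CPM in Vip cells. Htr3a averaged 346 ± 140 CPM in gated cells and 296 ± 167 CPM in Vip cells and did not pass (adjusted p = 0.652). The calls of Tac2, Kcna2 and Kcnq5 were lost under at least 1 alternative setting. Kcnq5 pooled to 39.2 CPM in Vip cells, and Kcna2 and Cntnap5a were also low there. The part of the low-count filter in the direction of Kcnq5, Kcna2 and Cntnap5a was not tested. Gated cells were deeper than Vip cells, at medians of 4010 and 1829 UMIs in PFC CTRL replicate 2 and 4553 and 2120 in MC CTRL, and the part of depth was not tested.

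Lamp5 and Npy cells, a gate that takes in neurogliaform neurons, which release GABA by volume transmission, had 91 of 639 cells in the main cluster, and 274 and 201 in 2 other clusters. Against them 338 of 4570 tested genes passed (7.4%), 156 higher (3.41%) and 182 lower (3.98%) in the gated cells, and the median log2 fold change was -0.01. Libraries of the classes did not overlap in 5.27% of the tested genes. Without PFC CTRL replicate 2, 205 passed. Htr3a was at 366, 456, 389, 419 and 103 CPM in gated cells, against 51.4, 25.8, 32.4, 31.9 and 13.2 CPM in Lamp5 and Npy cells (3.40 ± 0.23, adjusted p = 1.92e-11). Npy2r averaged 159 ± 69.0 CPM in gated cells and 3.90 ± 4.25 CPM in Lamp5 and Npy cells (5.15 ± 0.42). Cadps2 rose by 2.87 ± 0.21 and Cxcl14 by 1.73 ± 0.13. Rgs12, a regulator of G-protein signalling, rose by 2.72 ± 0.22. None of these overlapped between the classes. Npy2r had 9 counts in Lamp5 and Npy cells and so entered the test through the gated cells. Htr3a did too, since among Lamp5 and Npy cells it reached the low-count filter only in PFC DTA replicate 2. Its direction therefore largely followed from the filter.

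Sv2c, a synaptic vesicle glycoprotein gene, and Car4, a carbonic anhydrase gene, had no count in any gated cell of the 5 libraries. Over those libraries Lamp5 and Npy cells held 707 and 510 counts of them, so Sv2c was at least 47.7-fold and Car4 at least 34.4-fold lower in gated cells. Egfr, the epidermal growth factor receptor, had 2 counts in gated cells and 239 in Lamp5 and Npy cells, a ratio of 0.0414 with an interval of 0.00498 to 0.151. Sema5a, a semaphorin, fell by 4.02 ± 0.39, Caln1 by 4.42 ± 0.42 and Tox2 by 3.23 ± 0.45. Sema5a, Caln1 and Tox2 had 9, 6 and 6 counts in gated cells. Like Sv2c, Car4 and Egfr, they entered the test through Lamp5 and Npy cells, so all of these had to be lower. Ddah1, Cpne2 and the neurexin-family gene Cntnap5a were among the 8 largest gains, at 2.72, 2.40 and 2.51. Cntnap5a pooled to 135 CPM in the main cluster and 268 CPM outside it, against 28.9 CPM in Lamp5 and Npy cells. Ddah1 and Cpne2 pooled to 28.9 and 20.7 CPM in Lamp5 and Npy cells. The part of the low-count filter in the direction of these gains was not tested.

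Of 4 tested endocannabinoid genes 2 passed, both lower than in Lamp5 and Npy cells. They were Mgll and Abhd6, which degrade the endocannabinoid 2-arachidonoylglycerol, at -1.22 ± 0.24 and -1.11 ± 0.34, and the call of Abhd6 was lost in 8 of its 12 alternatives. Pnoc and Cort were lower at -1.95 ± 0.23 and -2.40 ± 0.34.

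The CGE list was not uniform in this comparison, with 4 of 9 tested genes higher and 2 lower. Npas1, Npas3 and Nr2f2 rose by 1.87, 1.86 and 1.15, and Nfib fell by 1.34 ± 0.17. Of 10 GABA-A subunit genes Gabra3 rose by 1.49 ± 0.33, whereas Gabra4, Gabra5 and Gabrd fell by 1.05, 1.58 and 1.77. In adhesion genes 5 of 14 were higher and 2 lower, with Nrxn3 at 1.20 ± 0.14. Syt6 and Cplx2 were the release genes that passed, both higher, at 2.86 ± 0.54 and 1.33 ± 0.27. Calls of Syt6, Cplx2, Mgll, Gabra4, Gabra5 and Gabrd were lost under at least 1 alternative setting. Syt6 and Gabra3 pooled to only 13.7 and 26.1 CPM in Lamp5 and Npy cells, and Gabrd to 19.3 CPM in gated cells. The part of the low-count filter in their direction was not tested. Gated cells were deeper, at medians of 4010 and 2478 UMIs in PFC CTRL replicate 2 and 4553 and 3480 in MC CTRL, and the part of depth was not tested.

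The share of Cnr1-gated interneurons among GABA cells was not detectably different between the genotypes of the PFC. It was 2.80, 3.58 and 3.65% in the DTA libraries, against 2.70 and 4.43% in the CTRL libraries, so that the CTRL libraries lay on both sides of the DTA ones. The means were 3.35 ± 0.472% in DTA and 3.56 ± 1.22% in CTRL (SD, n = 3 and 2), and an exact two-sided permutation test over 10 splits gave p = 1, where 0.1 is the smallest it allows. DTA minus CTRL was -0.217 percentage points, and it was 0.644 without PFC CTRL replicate 2 and also above 0 without PFC DTA replicate 1. Gated cells with Sncg were 0.935, 0.358 and 1.37% of GABA cells in the DTA libraries, against 1.35 and 1.67% in the CTRL libraries, from 1 to 14 cells each. Their means of 0.888 ± 0.507% in DTA and 1.51 ± 0.229% in CTRL gave p = 0.3 in the same exact permutation test. Of all cells, gated cells were 0.168 ± 0.0785% in DTA and 0.291 ± 0.119% in CTRL, again with an exact permutation p = 0.3, which also moves with the share of GABA cells. Exact Clopper-Pearson intervals at 95%, which cover counting error only, ran from 0.582 to 7.98% in PFC DTA replicate 1 and from 3.14 to 6.05% in PFC CTRL replicate 2. In the MC the share was 2.56% in DTA (0.947 to 5.50%) and 3.96% in CTRL (2.50 to 5.94%), with 1 library each and no test.

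Between the PFC genotypes, 7 of 2578 genes passed within the gated cells (0.272%), 3 higher (0.116%) and 4 lower (0.155%) in DTA, from 2 DTA libraries and 1 CTRL library with at least 5 gated cells. When all 5 PFC libraries were used, edgeR called 0 genes, with 86 at an unadjusted p below 0.05, and DESeq2 called 0, with 14. The fit of 3 libraries has 1 residual degree of freedom. Fos, an immediate early transcription factor, was at 265, 211 and 731 CPM in the DTA libraries, against 272 and 56.5 CPM in the CTRL libraries (3.06 ± 0.56, adjusted p = 6.98e-05, in the fit of 3 libraries). Its groups overlapped through PFC CTRL replicate 1, which holds 4 gated cells, and 1 cell gave 37.5% of the DTA counts in the fit. Jun, its partner, was at 398, 66.5 and 324 CPM in DTA, against 81.5 and 25.1 CPM in CTRL, again with overlap (2.91 ± 0.70, adjusted p = 0.0174), and 1 cell gave 51.5% of its DTA counts in the fit. Of the 8 tested immediate early genes 2 passed, Fos and Jun. The summed level of the 12 listed genes was 730, 665 and 2782 CPM in DTA and 1032 and 446 CPM in CTRL. In the fit of 3 libraries Fos and Jun reached the low-count filter only in DTA. They entered the test through DTA and so had to be higher there.

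Single cells also gave much of the counts of the lower genes. Ccl7, a chemokine, had 44 counts in PFC CTRL replicate 2, all from 1 cell, and none in DTA, where it was at least 16.0-fold lower. In that library 1 cell gave 89.0% of the counts of Hbb-bs, a beta-globin, and 58.3% of those of Apoe, an apolipoprotein of glia. In DTA these fell by 3.08 ± 0.54 (Hbb-bs) and 2.68 ± 0.48 (Apoe) on the log2 scale. Ccl7 and Hbb-bs had 0 and 9 counts in the DTA libraries of the fit. They entered the test through CTRL and so had to be lower in DTA. The 7 microglial marker genes summed to 80 counts (502 CPM) in the gated cells of that library and to between 0 and 3 counts in each other PFC library, and the 6 blood genes to 115 counts against at most 11; their part in these calls was not tested. Rbp4, a retinol carrier, was at 398, 742 and 360 CPM in DTA, against 353 and 157 CPM in CTRL (1.83 ± 0.47, adjusted p = 0.0422). Pooled over the 5 PFC libraries, 140 of its 141 counts came from the 22 cells outside the main cluster, and 82 of 103 Fos counts did. Within the main cluster, Fos pooled to 82.5 CPM in DTA and 93.0 CPM in CTRL, and outside it to 942 CPM in DTA and 104 CPM in CTRL. In the MC, Fos had 3 counts in DTA and 3 in CTRL, and Apoe had 1 count in DTA and 58 in CTRL.

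Between the areas, 27 of 2291 genes passed within the gated cells (1.18%), 15 higher (0.655%) and 12 lower (0.524%) in the MC, from 5 libraries with genotype as a term. Without PFC CTRL replicate 2, which holds 37 of the 62 PFC cells, edgeR called 0 genes, with 135 at an unadjusted p below 0.05. The count was 44 without PFC DTA replicate 2, 14 without PFC DTA replicate 3 and 17 without MC CTRL. Tac1, the precursor of substance P, had no count in either MC library, against 1393, 244 and 204 CPM in the PFC DTA libraries and 244 and 339 CPM in the PFC CTRL libraries, which makes it at least 17.3-fold lower in the MC of the fitted libraries. Tcap was likewise listed at 0 in both MC libraries and at least 9.47-fold lower. Rbp4 had 2 counts in the MC and 122 in the PFC, a ratio of 0.0294 (0.00353 to 0.109). Phlda1 and Junb, both induced by activity or stress, had ratios of 0.0466 (0.00555 to 0.174) and 0.0792 (0.0159 to 0.242). Tac1, Tcap, Rbp4, Phlda1 and Junb had 0, 0, 2, 2 and 3 counts in the MC. They entered the test through the PFC and so had to be lower in the MC. Every MC library was below every PFC library in each of these 5 genes, which were named for their folds. This lack of overlap is therefore a description. The areas did not overlap in 22% of all tested genes over the fitted libraries.

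Most PFC counts of these 5 genes came from the cells outside the main cluster. Of 123 Tac1 counts in the PFC 122 came from the 22 outside cells, at 832 CPM, and 1 came from the 40 cells of the main cluster, at 4.20 CPM. All 58 PFC counts of Tcap came from the outside cells. Of Rbp4, the main cluster held 2 counts in 26 MC cells and 1 count in 40 PFC cells, both at or under the floor of 3 counts. Phlda1 pooled to 5.70 CPM in the MC and 33.6 CPM in the PFC within the main cluster, and to 532 CPM in the outside cells of the PFC. Junb had 56 counts in the outside cells and 17 in the main cluster of the PFC. With 2 outside cells in the MC, the area and the share of outside cells cannot be told apart for these genes.

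The 5 largest gains in the MC had higher pooled levels there within the main cluster too. Ogfrl1 was at 1307 and 1154 CPM in the MC libraries, against 199, 155 and 240 CPM in PFC DTA and 407 and 301 CPM in PFC CTRL (2.33 ± 0.31, adjusted p = 0.000114). Within the main cluster it stood at 1248 CPM in 26 MC cells and 306 CPM in 40 PFC cells. Crtac1 was at 241 and 253 CPM in the MC libraries, against 0, 0 and 48.0 CPM in PFC DTA and 81.5 and 37.7 CPM in PFC CTRL (2.97 ± 0.54, adjusted p = 0.00326), and at 256 and 33.6 CPM in MC and PFC within the main cluster. Nov was at 305 and 197 CPM in the MC, against at most 81.5 CPM in any PFC library (3.13 ± 0.56). A single MC cell gave 53.3% of its counts, and within the main cluster it pooled to 239 CPM in the MC and 46.2 CPM in the PFC. In the fitted libraries Crtac1 and Nov reached the low-count filter only in the MC. They entered the test through the MC and so had to be higher there.

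The areas also differed in how many main-cluster cells had Sncg. The main cluster held 6 cells with Sncg and 20 without in the MC, and 21 with and 19 without in the PFC. The higher Ogfrl1 of the MC was seen in the cells without Sncg, where it had a UMI in 19 of 20 MC and 11 of 19 PFC cells. In the cells with Sncg, Ogfrl1 pooled to 286 CPM in the MC and 302 CPM in the PFC. That MC value rests on 6 cells, of which 1 held 30379 UMIs, so little can be said of an area difference there. Nov was found in 7 of 20 MC cells without Sncg and in none of the 6 with it. Htr3a went the other way in the cells without Sncg, with a UMI in 2 of 20 MC cells and 9 of 19 PFC cells, at median depths of 4971 UMIs in the MC and 2989 UMIs in the PFC. Npy2r was found in 0 of 20 MC cells of that kind, which allows a share of cells with a UMI, not of cells that use the gene, of up to 15%, and in 7 of 19 PFC cells.

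Sema3c, a secreted semaphorin, and Enpp2, autotaxin, completed these 5 genes, at 2.81 ± 0.51 and 2.31 ± 0.51. Sema3c was at 190 and 882 CPM in the MC libraries, against 464, 0 and 71.9 CPM in PFC DTA and 163 and 107 CPM in PFC CTRL, so that the MC DTA library fell inside the PFC range. Its call was lost when every library was used. Within the main cluster Sema3c pooled to 569.8 CPM in the MC and 151 CPM in the PFC, and Enpp2 to 330.5 CPM in the MC and 71.4 CPM in the PFC. Over the fitted PFC libraries Sema3c and Enpp2 pooled to only 69.1 and 57.1 CPM. The part of the low-count filter in their direction was not tested.

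**Figure D5:**
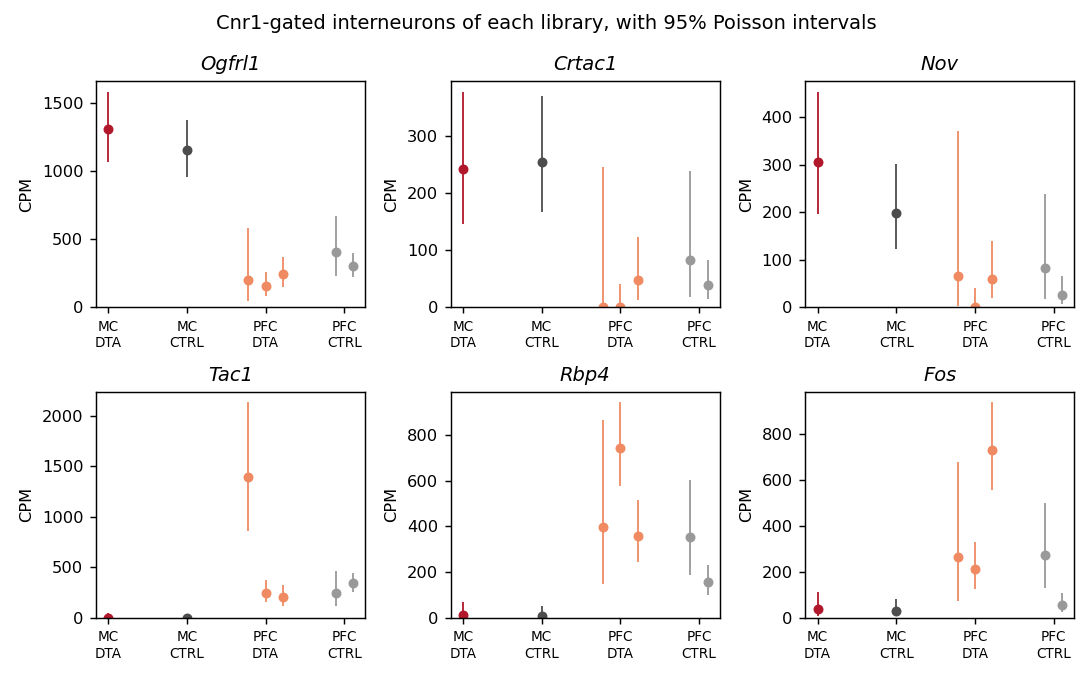
CPM of 6 genes in the Cnr1-gated interneurons of each library, MC left of PFC and DTA left of CTRL within an area; points are libraries and bars are exact 95% Poisson intervals, which cover counting error only. Ogfrl1, Crtac1 and Nov are higher in both MC libraries, Tac1 and Rbp4 are near 0 there, and Fos overlaps between the PFC genotypes.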

How the data were processed

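The authors deposited 1 table of raw UMI counts per library; whole values of at least 0 were checked. Per the submitters' processing notes, Cell Ranger 3.0.2, Seurat and mm10 were used. No cell was filtered here, but the deposited cells all had at least 501 genes, with a minimum of 501 to 503 in each library. The gated cells, gene lists and naming rule were chosen with earlier results of these data known.

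Counts were summed per library and class over libraries with at least 5 cells, without the 12 gate genes, and tested with edgeR 4.0.16 (TMM, filterByExpr at 10 counts, robust quasi-likelihood test, Benjamini-Hochberg at 0.05); the SE is the log2 fold change over the square root of F. P-values measure only the spread between libraries. The PFC genotype fit holds 1 CTRL library, so its p-values hold no spread among CTRL libraries. Vip, Pvalb, and Lamp5 and Npy cells are GABA cells gated on those genes. The class comparisons name the 4 called genes of a list with the smallest p and the 8 largest folds each way at 50 CPM or more, genotype and area the 5 largest. Clusters came from leidenalg 0.10.2 on 20 principal components of 1500 genes. Doublets were called with Scrublet (scanpy 1.11.5), in 1 library at a preset rate, and kept. The test was checked on simulated counts with 100 genes changed 2-fold and 100 changed 4-fold. The PFC genotype fit found 9 and 68 of them, with 7 false calls. The other fits found 40 to 88 and 94 to 100, with 6 to 11 false calls. Some genes, counted in their lists, are not reported here. Alternatives were RLE, no filter, DESeq2 1.42.0, no robust fit, at least 10 cells, doublets left out, every library with a gated cell (added after seeing the data) and each library left out.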

Additional observations from a re-analysis of the deposited data

How the results depend on the processing

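A gene named in 1 comparison is counted as 1 result. Of 1771 alternative values for the 137 such results that passed, 1590 still passed in the same direction and 181 no longer did; 90 results passed under every alternative that gave them a value. The 7 PFC genotype calls became 4 with RLE size factors, 14 with no filter, 0 with DESeq2 (18 at an unadjusted p below 0.05), 4 with doublets left out, and 0 with every library by edgeR and by DESeq2. Leaving out each PFC library in turn, with every other one that has a gated cell, gave 0 to 3. The area count of 27 became 59 with no filter, 5 with DESeq2, 16 with every library and DESeq2, and 0 to 44 with a library left out, where an area with 1 library was taken to vary like the other. Against Vip cells, 120 became 311 with no filter, 66 with DESeq2, 191 with every library and 60 to 148 with a library left out. Against Lamp5 and Npy cells, 338 became 531 with no filter, 191 with DESeq2, 189 with at least 10 cells, 220 with no replicate block (no library term) and 205 to 324. Against Pvalb cells, 1002 became 653 with DESeq2 and 673 to 914. Genes tested differ between these settings, and otherwise the cause was not tested. The DTA minus CTRL share turned to 0.301 percentage points after thinning to 2000 UMIs, and ranged from -1.08 to 0.644 with a library left out.

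Replicate numbers are shared between the PFC genotypes without a stated pairing, and same-numbered libraries had correlations of deviations of 0.0689 and 0.0773. With the replicate block, on numbers 1 and 2 with any number of cells, 1 gene passed, against 0 in the same libraries without it. Not run for want of libraries were fits on cells with Sncg alone, at least 10 cells for genotype and area, and the genotype fit of 3 libraries with one left out.

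Direction changed for some uncalled genes. Against Vip cells these were Hbb-bs with DESeq2 (-0.42), Htr3a with at least 10 cells (-0.034) and Htr2c with every library and DESeq2 (0.063), and Slc1a2 ranged from -0.33 to 0.031 with a library left out. Against Lamp5 and Npy cells, Junb turned with doublets left out (0.10) and at least 10 cells (0.22), as did Hba-a1 (0.11) and Hbb-bs (0.82) with at least 10 cells. With a library left out Junb ranged from -0.54 to 0.029, Egr1 from -0.098 to 0.41 and Hbb-bs from -4.69 to 0.49. Against Pvalb cells, Nrgn (-0.060) and Lmo4 (-0.14) turned with no filter, Lmo4 (-0.0108) and Hbb-bs (-0.0504) with DESeq2, Lmo4 with at least 10 cells (-0.15), and Hbb-bs with doublets left out (-1.25) and no library term (-0.11). With a library left out Lmo4 ranged from -0.28 to 0.38, Mbp from -0.85 to 0.19 and Hbb-bs from -1.53 to 1.56.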
